A study of Mus musculus with 10 samples.

Results

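The 9 genes described here encode molecules by which T cells and keratinocytes can hold on to each other and by which T cells receive a second signal. They were chosen by name and found in all 10 deposited tables, where they were 9 of 25814 genes. The ligand genes were Icam1, Icam2, Vcam1, Cd80 and Cd86, and the receptor genes were Itgal, Itgb2, Itga4 and Cd28. LFA-1, the dimer of the Itgal and Itgb2 products, binds ICAM-1 and ICAM-2 on the partner cell. The Itga4 product pairs with the integrin β1 or β7 chain, and its β1 dimer, VLA-4, binds VCAM-1. CD28 on T cells binds CD80 and CD86, which belong to the B7 family and are best known from dendritic cells and B cells. ICAM-1 is low on resting keratinocytes and is known to be induced by IFN-γ and TNF-α in inflamed skin.

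RNA was sequenced in 5 groups of 2 libraries. Keratinocytes were primary cells from tails of adult C57/B6 mice, cultured either alone or together with CD8+ T cells. The study also prepared keratinocytes from newborn mice, and the sequencing methods of its paper do not name the source. The T cells came from the spleen, were isolated with CD8 microbeads and, in every T-cell group, had first received 1 d of activation by αCD3/CD28 Abs. They were then sequenced at once (activated T cells), after 1 d more in the medium mixed for keratinocytes (T cells in mixed medium), or after 1 d of co-culture with keratinocytes (co-cultured T cells). After co-culture the T cells were washed off, so that each cell type gave its own libraries. The sample labels give 1 d of co-culture and the series design gives 1 h. Activation used an αCD28 Ab, so no T-cell group was free of a signal through the product of one of the 9 genes, and no resting T cells were among the libraries. Libraries of the mixed-medium and co-cultured T cells carry no replicate number in the labels, and theirs are names only. No source states that libraries of a group came from separate mice or cultures, so p-values measure the spread between these libraries, which may be technical.

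Between 12864931 and 18019609 exon reads per library were assigned to genes, which puts 3 reads on a gene of 1 kb at 0.158 to 0.212 RPKM (reads per kilobase of exon, scaled to the mapped reads of the library). Keratinocyte markers summed to 11005 to 15723 RPKM in the keratinocyte libraries, to 20.4 and 68.8 RPKM in co-cultured T cells and to 0.87 to 2.37 RPKM in the other T-cell libraries. T-cell markers summed to 1033 to 2504 RPKM in the T-cell libraries. They were also present in keratinocytes, where they summed to 94.1 and 359.7 RPKM without co-culture and to 118.7 and 645.8 RPKM with it. In these 4 keratinocyte libraries Cd3d was at 18.1 to 115 RPKM and Cd4 at 11.4 to 84.5 RPKM, but Cd8a was at 0.118 to 1.16 RPKM and Cd8b1 at 0.107 to 2.00 RPKM, against at least 110 RPKM of Cd8a in every T-cell library. The T-cell libraries held Cd4 as well, at 16.8 and 102.3 RPKM in activated T cells and at 62.0 to 75.9 RPKM in the others. Red-cell markers summed to 72.3 to 488.7 RPKM in keratinocytes and to 355.3 to 1475 RPKM in T cells, while myeloid markers summed to 119 to 338.7 RPKM and B-cell markers to 16.6 to 92.3 RPKM in T cells. In such bulk libraries, fewer cells of a type and less RNA per cell cannot be told apart.

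The window of 250 bases before the transcription start of Icam1 is shown because Icam1 was the member whose 2 keratinocyte groups lay furthest apart. It lies at chr9:21015690-21015939 on the plus strand of GRCm38.p6 (RefSeq), and the gene in the deposited tables spans chr9:21015985-21028817 with 7 exons. Capitals mark matches to the letters GGANNNTCC and GGGNNNNNCC, which are of the type bound by NF-κB factors, and to TTCNNNGAA, the type bound by STAT factors. From the start outwards, the matches lay at bases -42 to -34 (TTCNNNGAA), -120 to -111 (GGGNNNNNCC on the minus strand) and -153 to -145 (GGANNNTCC), with no overlap between them.

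Icam1: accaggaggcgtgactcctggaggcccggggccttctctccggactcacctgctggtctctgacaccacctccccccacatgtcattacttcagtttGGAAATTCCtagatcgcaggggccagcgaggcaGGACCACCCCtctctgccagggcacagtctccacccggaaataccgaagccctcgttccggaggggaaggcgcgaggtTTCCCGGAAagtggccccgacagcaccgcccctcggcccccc

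Both strands were searched. The patterns TTCNNNNGAA, GGANNNNTCC and GAAANNGAAA, the last of the type found in interferon response elements, were searched as well. They had no match in the window of Icam1 or in that of Cd80 below, and were held by 5.85%, 6.54% and 2.98% of all windows. Of 32851 RefSeq windows of this length, 7.02% held TTCNNNGAA, 7.27% held GGANNNTCC and 45.8% held GGGNNNNNCC. The letters GGANNNTCC were added to the search after the window had been seen. The window of Cd80, at chr16:38458683-38458932 on the plus strand, is printed for comparison with the ligand gene whose levels were lower. Capitals mark its 2 matches to GGGNNNNNCC, at bases -210 to -201 and, on the minus strand, -52 to -43.

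Cd80: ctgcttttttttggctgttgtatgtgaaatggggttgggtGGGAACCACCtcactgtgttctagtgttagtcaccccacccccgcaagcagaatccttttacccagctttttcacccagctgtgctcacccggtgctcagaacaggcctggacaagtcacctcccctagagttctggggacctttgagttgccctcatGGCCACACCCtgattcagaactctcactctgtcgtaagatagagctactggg

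The window of Itga4 held no match to any of the 6 letter patterns. A match describes letters only, and no binding was measured.

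Icam1 stood higher in co-cultured keratinocytes than in any other group. In keratinocytes alone it was at 15.8 and 15.7 RPKM, and after co-culture with CD8+ T cells it was at 45.6 and 37.2 RPKM. The pairs of libraries did not overlap, and the fold between their means was 2.63, with 2.89 for replicate 1 and 2.37 for replicate 2. The fitted log2 fold change was 1.46 ± 0.27 (SE) with a 95% interval from 0.755 to 2.17, and Icam1 missed the threshold across all genes (adjusted p = 0.658 in edgeR's quasi-likelihood test). No keratinocyte gene passed this test, so that 0% of 12515 genes were called, and 901 had an unadjusted p under 0.05. DESeq2 called 186 genes and gave Icam1 an adjusted p of 0.00793. With each keratinocyte library left out in turn, the log2 fold change of Icam1 in edgeR was 1.37 to 1.52. Such fits leave 1 library in a group, so only the size of the change is given. Icam1 is among the genes that the study grouped by function from these same libraries, so its direction here is not independent evidence. In GENCODE vM21, 511 exonic bases of Icam1 overlap exons of Gm47079 on the opposite strand, a gene that the deposited tables lack. The kit used does not mark strand, so reads of Gm47079 there would count as Icam1 reads. Their share was not tested.

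The level of Icam1 did not follow the T-cell markers of the keratinocyte libraries. Keratinocytes alone had the same Icam1 level at 94.1 and at 359.7 RPKM of T-cell markers. Replicate 1 of the co-cultured keratinocytes had the highest Icam1 level of all libraries with 118.7 RPKM of T-cell markers, less than replicate 2 of the keratinocytes alone. Expressed as a percentage of the summed T-cell markers, Icam1 ranged from 4.37 to 38.4% over the 4 keratinocyte libraries.

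**Figure D1:**
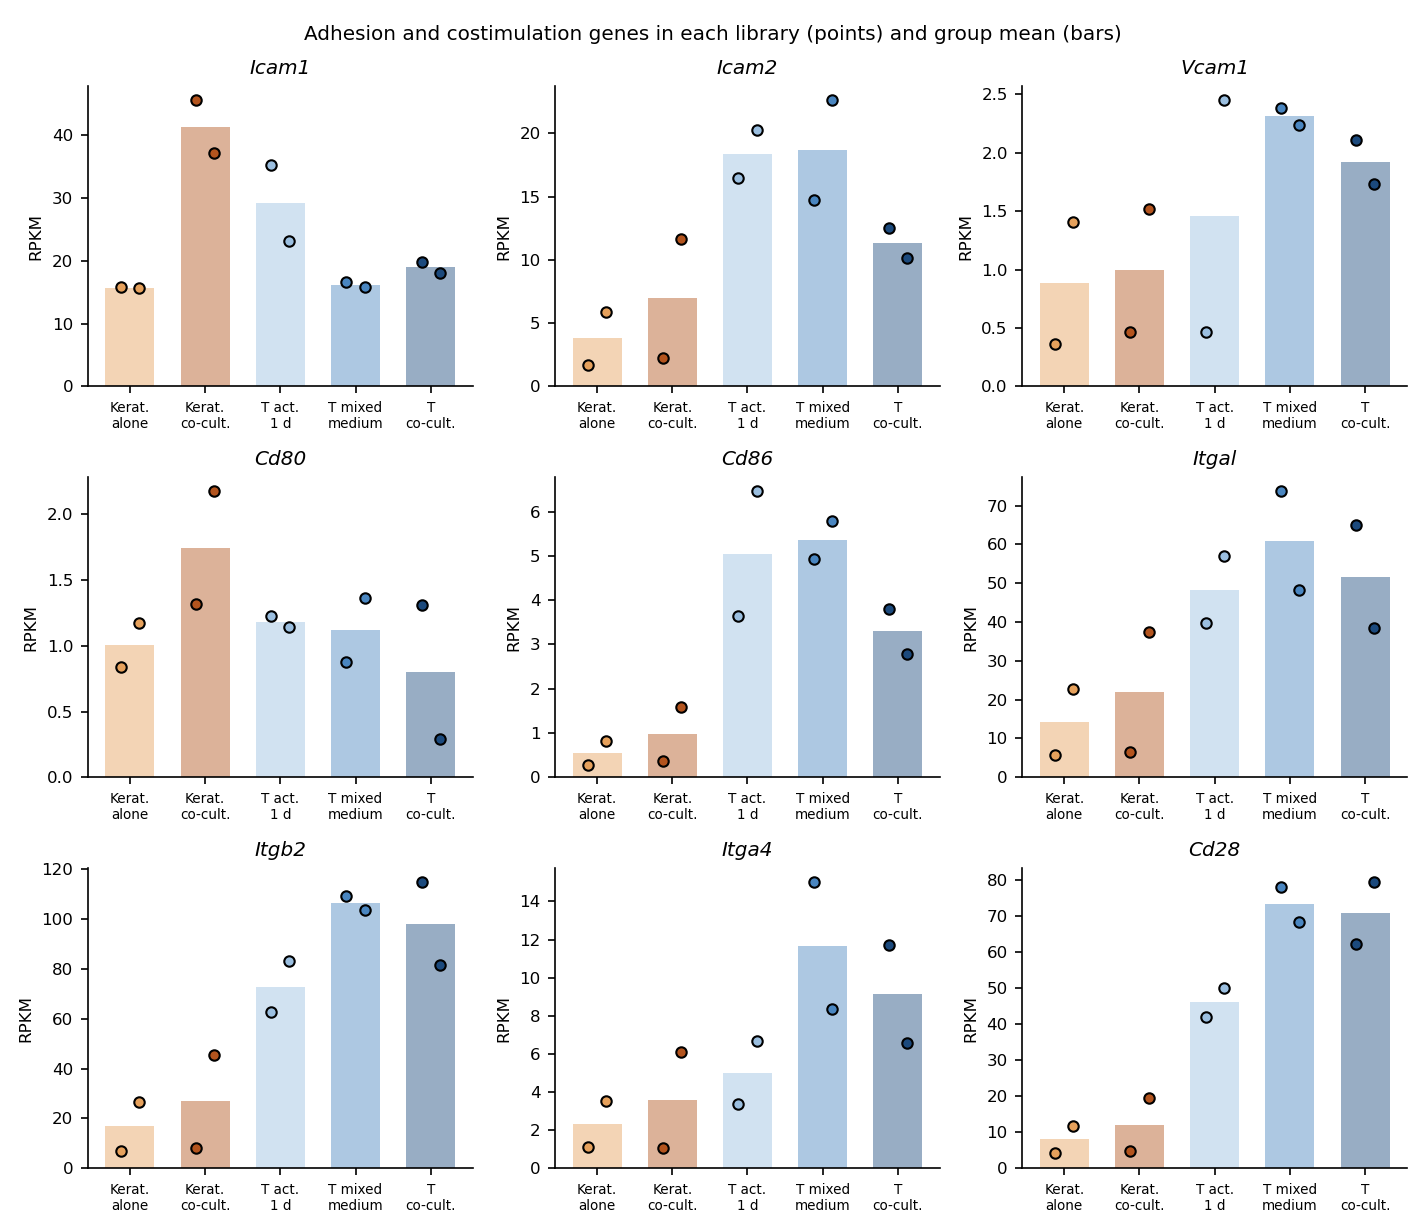
RPKM of each gene (y axis, linear, from 0) in the 5 groups (x axis), with 1 point per library and bars at the mean of 2 libraries. Icam1 was at 45.6 and 37.2 RPKM in co-cultured keratinocytes, above 15.8 and 15.7 RPKM for keratinocytes alone, whereas Itgal, Itgb2 and Cd28 were higher in all T-cell libraries than in any keratinocyte library.

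In T cells, Icam1 showed its highest level directly after activation. Activated T cells had 35.2 and 23.2 RPKM, T cells in mixed medium 16.5 and 15.8 RPKM, and co-cultured T cells 19.8 and 18.1 RPKM. Each group was separate from the next in this order, and keratinocytes alone, at a mean of 15.7 RPKM, lay just under the T cells in mixed medium at 16.2 RPKM. None of the T-cell differences passed the test. The log2 fold change was -0.70 ± 0.32 (SE) from activated T cells to mixed medium (adjusted p = 0.228, edgeR), -0.42 ± 0.32 from activated to co-cultured T cells (adjusted p = 0.435) and 0.27 ± 0.32 from mixed medium to co-culture (adjusted p = 1). The effect of co-culture on Icam1 was larger in keratinocytes than in T cells by 1.18 ± 0.35 on the log2 scale, with a 95% interval from 0.355 to 2.00, and this difference missed the threshold as well (adjusted p = 0.387, edgeR).

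Icam2 (chr11:106377656-106388075, minus strand), whose product is a second ligand of LFA-1 found on endothelium and leukocytes, had its highest group means in T cells. Keratinocytes alone had 1.68 and 5.89 RPKM and co-cultured keratinocytes 2.23 and 11.7 RPKM, so that these groups overlapped. Activated T cells had 16.5 and 20.3 RPKM, T cells in mixed medium 14.7 and 22.6 RPKM, and co-cultured T cells 12.5 and 10.1 RPKM. Both co-cultured T-cell libraries lay under all other T-cell libraries. The log2 fold change from mixed medium to co-culture was -0.70 ± 0.41 (SE), with a 95% interval from -1.63 to 0.238 (adjusted p = 1, edgeR). The ratio of Icam1 to Icam2 was 2.67 to 20.4 in keratinocytes and 0.701 to 2.14 in T cells.

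Vcam1 (chr3:116109949-116129688, minus strand), the ligand of VLA-4 that endothelium displays in inflammation, was low throughout. Its keratinocyte levels were 0.361 and 1.40 RPKM alone and 0.464 and 1.52 RPKM after co-culture, from 35 to 128 reads. Among T cells it was at 0.466 and 2.45 RPKM after activation, at 2.38 and 2.24 RPKM in mixed medium and at 2.11 and 1.73 RPKM after co-culture. Libraries of one group thus differed more than the keratinocyte groups did, and the fitted log2 fold change in keratinocytes was 0.26 ± 0.97 (SE, adjusted p = 0.927, edgeR). A change of this gene in keratinocytes between a log2 fold of -2.24 and 2.75 was within the 95% interval.

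The B7 genes, too, were low in keratinocytes. Cd80 (chr16:38458933-38486933, plus strand) gave 0.836 and 1.17 RPKM in keratinocytes alone, and 1.32 and 2.17 RPKM after co-culture. These pairs did not overlap, but the values rest on 27 to 61 reads, and the log2 fold change of 0.88 ± 0.73 (SE) did not pass (adjusted p = 0.708, edgeR). Of the 9 genes, 2 had groups that did not overlap in keratinocytes, Icam1 and Cd80, against 44.1% of all genes tested. In T cells Cd80 was at 1.22 and 1.14 RPKM after activation, 0.875 and 1.36 RPKM in mixed medium and 1.31 and 0.291 RPKM after co-culture. The last value rests on 7 reads.

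Cd86 (chr16:36603869-36666081, minus strand) differed from Cd80 in where it was found. Keratinocytes alone had 0.281 and 0.813 RPKM, co-cultured keratinocytes 0.374 and 1.59 RPKM, and the T-cell libraries 2.79 to 6.46 RPKM. All 6 T-cell libraries held more Cd86 than Cd80, by 2.90 to 9.58 times, and all 4 keratinocyte libraries held less, at ratios of 0.284 to 0.733. The keratinocyte ratios rest on 15 to 74 reads of Cd86 and 27 to 61 reads of Cd80. In T cells, Cd86 was at 3.63 and 6.46 RPKM after activation, at 4.92 and 5.78 RPKM in mixed medium and at 3.80 and 2.79 RPKM after co-culture. B-cell markers, which name a cell type that displays CD86, summed to 29.4 and 31.0 RPKM in activated T cells, to 44.2 and 92.3 RPKM in mixed medium and to 16.6 and 27.2 RPKM after co-culture, and myeloid markers to 176.4 and 338.7, 196.4 and 242.6, and 119 and 121.9 RPKM. The myeloid markers did not all fall from mixed medium to co-culture. Cd74 went from 110.1 and 105.6 RPKM to 49.03 and 34.18 RPKM. H2-Ab1 went from 34.91 and 82.08 RPKM to 26.89 and 31.16 RPKM, and Lyz2 and Mpeg1 were also lower. Cd68 was higher after co-culture, at 6.686 and 17.82 RPKM against 5.562 and 6.502 RPKM. Adgre1, Csf1r and Itgax overlapped, and Cd207 was at 0. The part of the B-cell and myeloid markers in the Cd86 level was not tested. The log2 fold change of Cd86 from mixed medium to co-culture was -0.67 ± 0.47 (SE, adjusted p = 1, edgeR).

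The receptor genes had their highest group means in T cells. Itgal (chr7:127296260-127335138, plus strand, 40 exons), the α chain of LFA-1, was at 39.8 and 56.9 RPKM in activated T cells, at 73.7 and 48.1 RPKM in mixed medium and at 64.9 and 38.4 RPKM after co-culture. Its T-cell groups overlapped each other in all 3 comparisons. Itgb2 (chr10:77530252-77565708, plus strand, 25 exons), the β2 chain shared by LFA-1 and other leukocyte integrins, was at 62.6 and 83.3 RPKM in activated T cells, at 109.4 and 103.5 RPKM in mixed medium and at 114.8 and 81.6 RPKM after co-culture. Both libraries in mixed medium were above both activated libraries. The log2 fold change was 0.68 ± 0.31 (SE), with a 95% interval from -0.028 to 1.40, and did not pass (adjusted p = 0.216, edgeR).

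Cd28 (chr1:60716800-60773359, plus strand, 4 exons) was at 42.0 and 49.9 RPKM in activated T cells, at 77.9 and 68.4 RPKM in mixed medium and at 62.1 and 79.3 RPKM after co-culture. All 4 later libraries lay above both activated ones, with folds between means of 1.59 and 1.54. The log2 fold changes from activated T cells were 0.81 ± 0.32 (SE) to mixed medium and 0.82 ± 0.32 to co-culture, and the adjusted p-values of 0.163 and 0.133 (edgeR) did not pass. Between mixed medium and co-culture the log2 fold change was 0.02 ± 0.31, with a 95% interval from -0.707 to 0.740.

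Itga4 (chr2:79255426-79333123, plus strand, 28 exons), the α4 chain, was at 3.37 and 6.66 RPKM in activated T cells, at 15.0 and 8.35 RPKM in mixed medium and at 11.7 and 6.57 RPKM after co-culture. Mixed medium was above activation in both libraries. Its log2 fold change to mixed medium, 1.33 ± 0.46 (SE), did not pass in edgeR (adjusted p = 0.122), whereas DESeq2 gave an adjusted p of 0.0373 and edgeR without a filter on low counts 0.0121. Only 53.6 to 67.3% of its exon reads were uniquely mapped, and 1124 of its exonic bases overlap exons of Cerkl on the opposite strand in GENCODE vM21. The level of Itga4 is therefore uncertain, since the kit used does not mark strand. Overlaps with genes on the opposite strand also exist for Icam1, as given above, and for Vcam1, with 61 bases shared with Gm43109.

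Counted over the 9 genes, edgeR called none in any T-cell comparison. All genes gave 6.54% called from activation to mixed medium, 10.3% from activation to co-culture and 0.261% from mixed medium to co-culture. At an unadjusted p under 0.05 there were 2 members (Itga4 and Cd28), 1 (Cd28) and 0, against 25%, 28.8% and 3.45% of all genes tested. Groups did not overlap for 4, 3 and 4 of the 9 genes, against 54.6%, 57.6% and 27.4% of all genes tested. The first of these counts was made of Itgb2, Itga4 and Cd28, which were higher in mixed medium, and Icam1, which was lower. In the second, Cd28 was higher after co-culture, and Icam1 and Icam2 were lower. In the third, Icam1 was higher in co-cultured T cells than in mixed medium, while Icam2, Vcam1 and Cd86 were lower. The median log2 fold change of the members was 0.46, 0.26 and -0.23 in the 3 comparisons, beside -0.01 for all genes in each. The 2 comparisons from activation share the activated T cells, and both comparisons of co-cultured T cells share those libraries. In the comparisons from activation, the end of activation, the further culture and the medium changed together and cannot be told apart. The T-cell marker sum was 1033 and 1315 RPKM after activation, 2029 and 2504 RPKM in mixed medium and 1695 and 2402 RPKM after co-culture, and its part in the values of Cd28 and Itgb2 was not tested. For no member did the effect of co-culture differ between keratinocytes and T cells at the threshold, and 0.576% of 13202 genes passed this test.

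**Figure D2:**
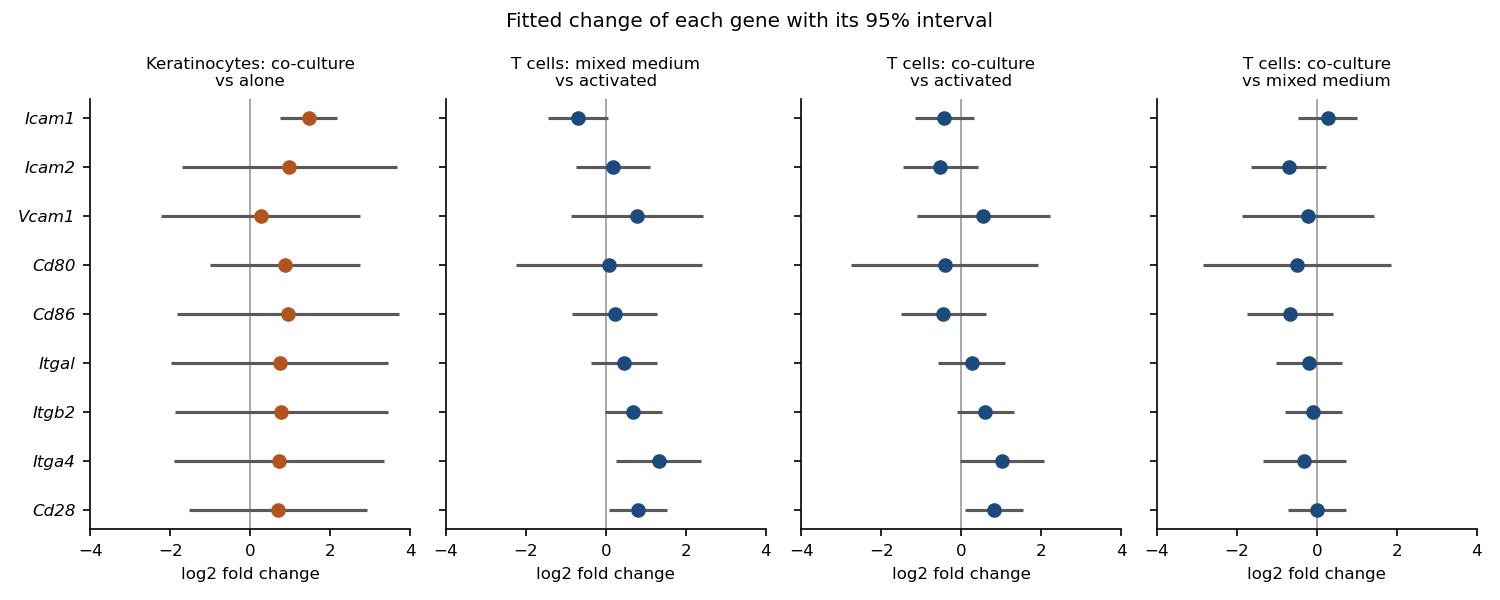
Fitted log2 fold change (x axis) of each gene (rows) in 4 comparisons, with lines for the 95% interval from edgeR's quasi-likelihood fit of 4 keratinocyte or 6 T-cell libraries. The interval of Icam1 in keratinocytes, 0.755 to 2.17, lies above 0, while those of the other 8 genes in keratinocytes span 0.

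The receptor genes were also read in the keratinocyte libraries, where their levels, like those of Icam2, Cd86 and Vcam1 given above, moved with the T-cell markers of the library. Red-cell markers moved the same way, summing to 72.3 and 255.1 RPKM in keratinocytes alone and to 98.3 and 488.7 RPKM after co-culture. Myeloid markers summed to 56.3 and 100.4 RPKM alone and to 52.7 and 120.2 RPKM after co-culture. The part of each kind of cell in the levels of the 9 genes was not tested. For Itgal, keratinocytes alone gave 5.76 and 22.6 RPKM, and co-cultured keratinocytes gave 6.64 and 37.5 RPKM. In both groups replicate 2 was far above replicate 1, as were its T-cell markers. Itgb2 showed the same order, with 7.15 and 26.5 RPKM alone and 8.08 and 45.6 RPKM after co-culture. Itga4 was at 1.11 and 3.55 RPKM alone and at 1.04 and 6.09 RPKM after co-culture.

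The levels of Cd28 were 4.31 and 11.7 RPKM alone, and 4.72 and 19.5 RPKM after co-culture. The keratinocyte groups overlapped for all 4 receptor genes, and their log2 fold changes of 0.69 to 0.78 had standard errors of 0.864 to 1.05. Without replicate 2 of the co-cultured keratinocytes the log2 fold changes of Itgal, Itgb2, Itga4 and Cd28 turned to -1.12, -1.08, -1.18 and -0.78. That library also turned Icam2 to -0.78, Vcam1 to -0.945 and Cd86 to -0.56 when it was left out, whereas Icam1 stayed at 1.52 and Cd80 at 0.37. Other libraries mattered as well. Without replicate 1 of the keratinocytes alone, the values of Itgal, Itgb2, Itga4 and Cd28 were 0.04, 0.10, 0.09 and 0.12. Without replicate 2 of the keratinocytes alone they were 2.1, 2.08, 1.85 and 1.65. With all libraries kept and the replicate number as a block they were 0.54, 0.56, 0.43 and 0.51. The median log2 fold change over the 9 genes in keratinocytes, 0.78 beside 0.02 for all genes, thus depended on which libraries were fitted.

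As a percentage of the summed T-cell markers of the same library, Itgal was 5.59 to 6.29% in the 4 keratinocyte libraries, a range of 1.13-fold against 6.51-fold in RPKM. The range shrank likewise for Itgb2, from 6.38-fold to 1.12-fold, and for Icam2, from 6.95-fold to 1.15-fold. It also shrank for Itga4, from 5.84-fold to 1.34-fold, for Cd86, from 5.68-fold to 1.39-fold, and for Vcam1, from 4.21-fold to 1.66-fold. For Cd28 the range was 4.52-fold in RPKM and 1.52-fold in these percentages. By contrast, it widened for Icam1, from 2.90-fold to 8.78-fold, and for Cd80, from 2.60-fold to 3.39-fold. Itgb2 per Itgal was 1.17 to 1.24 in the 4 keratinocyte libraries and 1.46 to 2.15 in the 6 T-cell libraries. Percentages of red-cell or myeloid markers, which were also higher in replicate 2 of both keratinocyte groups, were not computed. These are descriptions of 4 and 6 libraries, and the origin of the T-cell transcripts in the keratinocyte libraries, which held little Cd8a, was not tested.

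**Figure D3:**
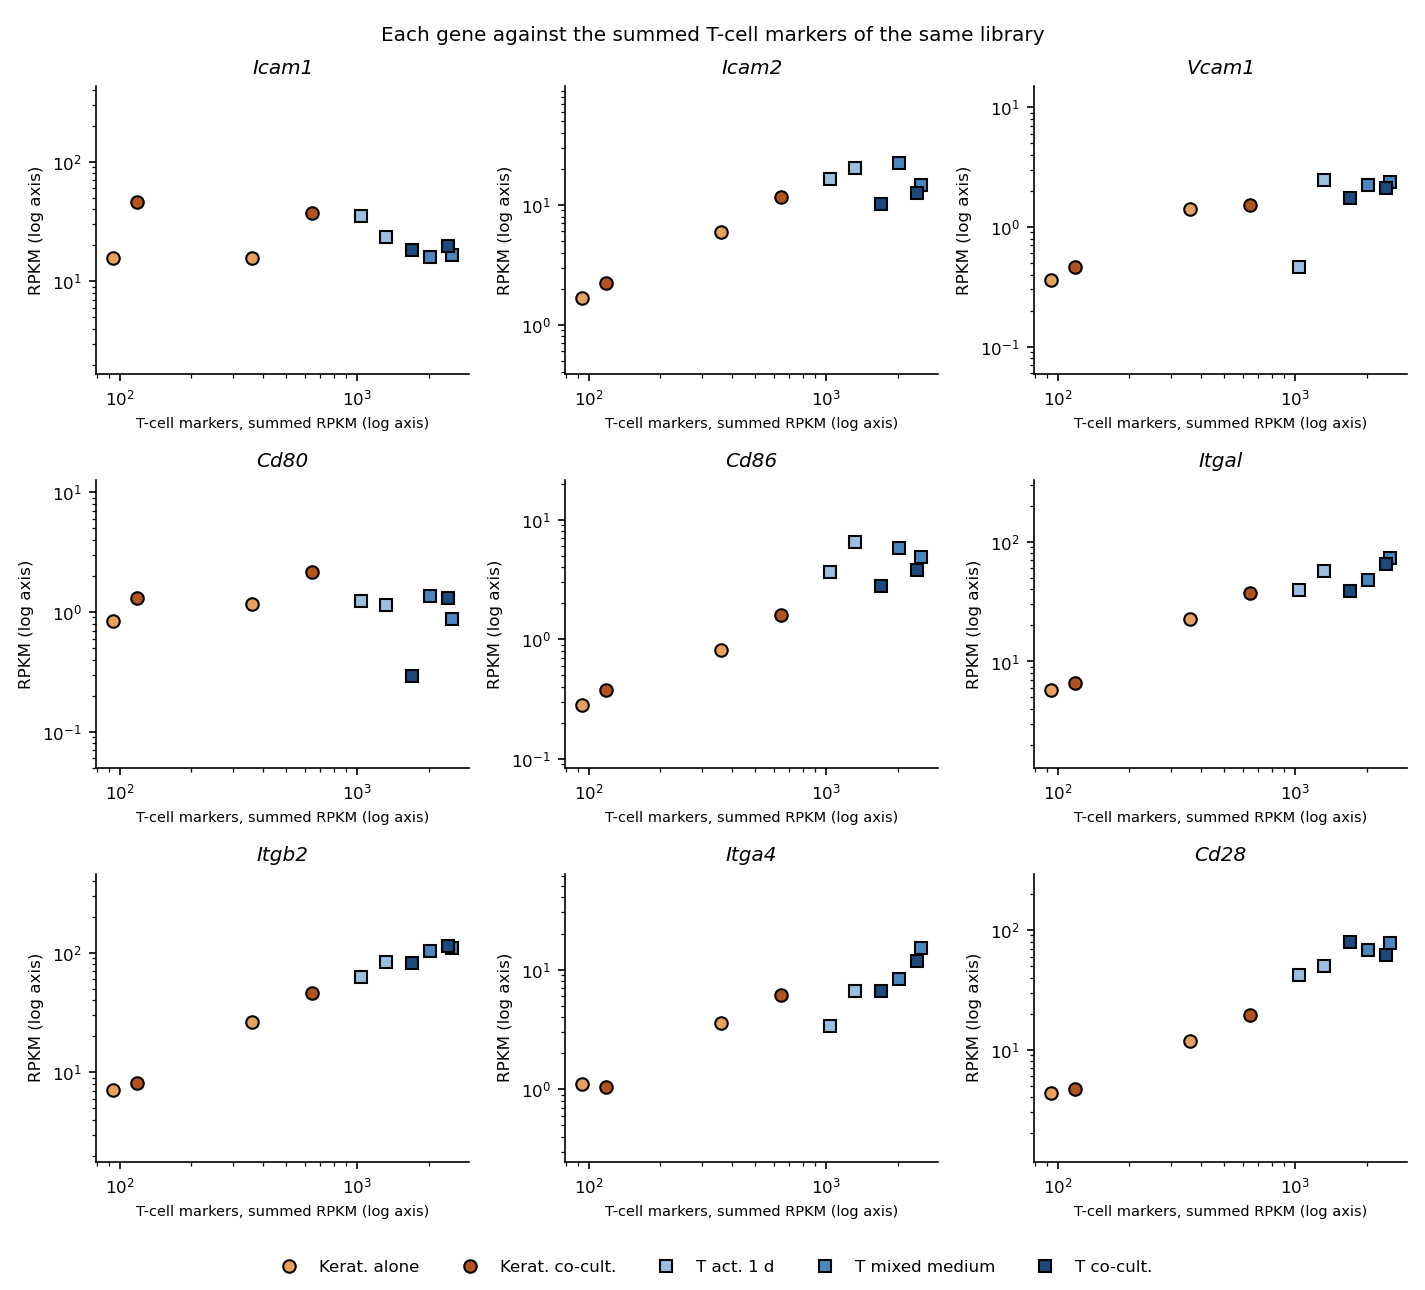
RPKM of each gene (y axis, log scale, spanning the same number of folds in each panel) against the summed RPKM of 7 T-cell markers (x axis, log scale), with 1 point per library, circles for keratinocytes and squares for T cells. Itgal, Itgb2 and Icam2 climb with the markers over the 4 keratinocyte libraries, while Icam1 is at 15.8 and 15.7 RPKM in keratinocytes alone at 94.1 and 359.7 RPKM of markers.

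With all libraries of each cell type in one fit, 5 of the 9 genes were called between T cells and keratinocytes, and each was higher in T cells. Among all genes, 49.3% were called in either direction and 18.7% as higher in T cells. The log2 fold changes were 2.61 ± 0.49 (SE) for Cd28 (adjusted p = 0.00235, edgeR), 2.56 ± 0.55 for Cd86 (adjusted p = 0.00472), 2.05 ± 0.55 for Itgb2 (adjusted p = 0.0141), 1.57 ± 0.55 for Icam2 (adjusted p = 0.0398) and 1.52 ± 0.56 for Itgal (adjusted p = 0.0479). Cd28, Cd86 and Itgb2 passed whichever of the 10 libraries was left out. In contrast, Icam2 lost its call without 7 of the 10 libraries in turn and Itgal without 8 of 10. Itga4 (1.43 ± 0.56, adjusted p = 0.0617) and Vcam1 (0.96 ± 0.62, adjusted p = 0.227) did not pass, nor did Cd80 (-0.42 ± 0.58, adjusted p = 0.571) and Icam1 (-0.31 ± 0.18, adjusted p = 0.175). Itga4 passed with DESeq2 (adjusted p = 0.0208), with both limma fits (0.0249 and 0.0257) and in edgeR without a filter on low counts (0.00786), and Itgal no longer passed with at least 10 counts in every library (0.0574). The 95% interval of the Icam1 difference, from -0.72 to 0.09, includes 0. This fit averages over the groups of a cell type, which were unlike for Icam1. Its group means were 15.7 RPKM in keratinocytes alone and 41.4 RPKM in co-cultured ones. In T cells they were 29.2 RPKM after activation, 16.2 RPKM in mixed medium and 18.9 RPKM after co-culture.

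The 3 genes most like each member over the 10 libraries, by Pearson's r of log2(RPKM + 1), were searched for among 8744 genes with a group mean of at least 5 RPKM. For Itgal these were Ucp2, Cd3e and Spn (r = 0.994, 0.994 and 0.994), for Itgb2 Sept1, Lck and Il2rb (0.996, 0.995 and 0.994) and for Cd28 Klhl6, Nrros and Glipr2 (0.996, 0.993 and 0.993). Itga4 was nearest to Lsp1, Atp2a3 and Arhgap45 (0.985, 0.985 and 0.985), Icam2 to Batf, Ptprcap and H2-Ab1 (0.984, 0.975 and 0.974), Cd86 to Bbip1, Traf5 and Traf1 (0.978, 0.973 and 0.972) and Vcam1 to Syt11, Klf2 and Rln3 (0.984, 0.978 and 0.970). Icam1 was nearest to Cdk1, Lap3 and Ifi205 (0.939, 0.913 and 0.913) and Cd80 to Galt, Tomm40l and Zfp991 (0.832, 0.819 and 0.812). The 10 points share cell type, depth and T-cell transcripts, so these values describe likeness only.

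Genes around the members were read from 6 lists. In keratinocytes none of their genes was called. In the list of interferon-γ and NF-κB factors, 3 of 13 genes had an unadjusted p under 0.05, Irf1 and Nfkbia among them, against 7.2% of all genes tested, and the median log2 fold change was 0.35 beside 0.02 for all genes. Irf1, a transcription factor induced by interferons, had 3.19 and 5.72 RPKM in keratinocytes alone, against 58.4 and 62.3 RPKM after co-culture. Its change was larger in keratinocytes than in T cells by 3.73 ± 0.54 (SE) on the log2 scale, the single gene of these lists to pass that test (adjusted p = 0.0364, edgeR). It lost this call without 7 of the 8 libraries in turn, at adjusted p-values up to 0.143, and with at least 10 counts in every library (0.184). In T cells Irf1 was at 58.0 and 52.3 RPKM in mixed medium and at 70.5 and 44.5 RPKM after co-culture. Among other B7 and CD28 family genes, Cd274, which encodes PD-L1, was the 1 of 11 genes with an unadjusted p under 0.05 in keratinocytes (again beside 7.2% of all genes) and is named for that after its values were seen. It was at 0.611 and 1.27 RPKM alone and at 5.50 and 4.84 RPKM after co-culture, with a log2 fold change of 2.52 ± 0.52 (SE, adjusted p = 0.658, edgeR).

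In T cells, the genes that passed from activation to mixed medium were 1 of 11 other integrin subunits, 2 of 13 integrin activation genes, 3 of 14 other adhesion molecules and 1 of 13 interferon-γ and NF-κB factors, beside 6.54% of all genes, and all rose. None of the 9 other B7 and CD28 family genes tested or of the 13 genes of signalling below CD28 was called, and their medians were -0.20 and 0.27 beside -0.01 for all genes. Itgae, the αE chain that binds E-cadherin on epithelia, rose from 1.57 and 6.00 RPKM to 85.2 and 51.4 RPKM (log2 fold change 4.28 ± 0.83 SE, adjusted p = 0.0270, edgeR). It was at 61.7 and 15.3 RPKM after co-culture, still above activation (3.46 ± 0.80, adjusted p = 0.0329), but without replicate 1 of the activated T cells this call was lost (2.78, adjusted p = 0.128). Of the integrin activation genes, Rasgrp2, which activates Rap1, rose by 3.01 ± 0.52 (adjusted p = 0.0207) and Skap1, an adaptor in the path from the T-cell receptor to LFA-1, by 1.61 ± 0.35 (adjusted p = 0.0380).

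Of the other adhesion molecules, Pecam1 (log2 fold change 2.34 ± 0.56 SE) and Cd96 (1.89 ± 0.40) were among those called from activation to mixed medium, and Tnfrsf1a, the TNF receptor 1 gene, rose by 1.42 ± 0.34. Each of the 7 genes called in the lists lost its call without replicate 1 of the activated T cells, at adjusted p-values up to 0.218, and without either library in mixed medium, and its direction stayed. From activation to co-culture 1 of 11, 2 of 13, 3 of 14 and 1 of 13 genes of the same lists rose, beside 10.3% of all genes called in either direction. Of these, Itgae, Rasgrp2, Skap1, Pecam1 and Tnfrsf1a lost their calls without replicate 1 of the activated T cells, at adjusted p-values of 0.0893 to 0.208 (edgeR), and stayed above activation. In that comparison 2 genes fell, Alcam (-2.15 ± 0.54, adjusted p = 0.0434), which encodes the ligand of CD6, and Nfkb2 (-1.65 ± 0.40, adjusted p = 0.0403). Without replicate 1 of the activated T cells both falls missed the threshold, at adjusted p-values of 0.229 and 0.221. No gene of the 6 lists was called between mixed medium and co-culture.

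Between T cells and keratinocytes, 11 of 13 integrin activation genes and 8 of 13 genes of signalling below CD28 were higher in T cells, among the former Rasgrp2 (3.04 ± 0.50), beside 18.7% of all genes higher in T cells and 49.3% called in either direction. Of the B7 and CD28 family genes 5 were higher in T cells, among them Ctla4, the inhibitory receptor for CD80 and CD86 (3.61 ± 0.55, adjusted p = 0.000736, edgeR), and 3 were lower, among them Vtcn1, which was listed at 0 in all T-cell libraries and at 2.38 to 3.30 RPKM in keratinocytes. Other adhesion molecules gave 8 higher and 6 lower, with Cdh1, the E-cadherin gene, lower in T cells (-10.91 ± 0.82). Other integrin subunits gave 2 higher and 3 lower, with Itgae higher (3.16 ± 0.80) and Itga5 lower (-3.37 ± 0.32). The interferon-γ and NF-κB factors gave 7 higher and 3 lower in T cells.

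**Figure D4:**
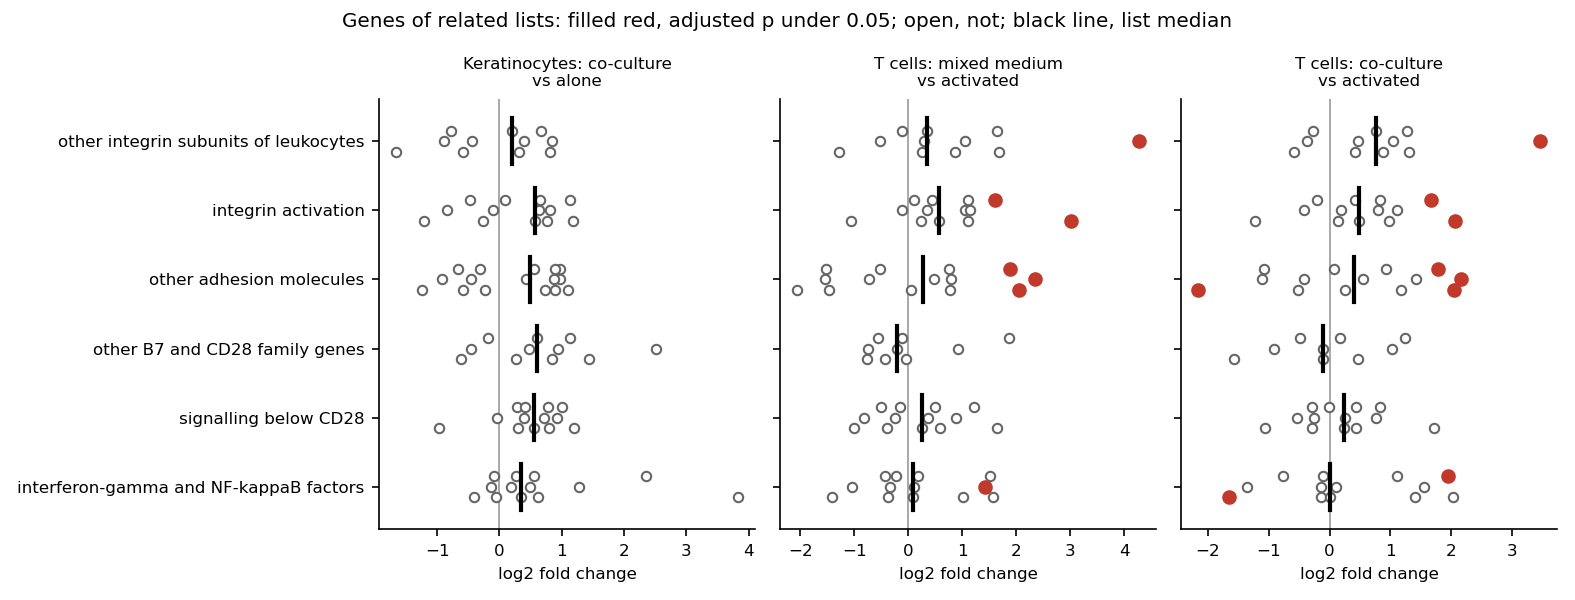
Log2 fold change (x axis) of each tested gene of the 6 lists (rows) in 3 comparisons, with filled red points for genes called by edgeR at an adjusted p under 0.05, open points for the rest and a black line at each list's median. No keratinocyte gene is filled, and Itgae stands furthest right in both T-cell panels, at 4.28 and 3.46.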

How the data were processed

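The labels of the 10 samples gave the groups. The authors isolated RNA with the RNeasy kit, prepared poly(A) RNA libraries (NEBNext Ultra II), read them single-end and used CLC Genomics Workbench at its defaults for mapping to GRCm38. The annotation release and strand setting are not given in the sources used here. For each gene the authors deposited counts of exon reads, counts of uniquely mapped reads among them, counts of intron reads, and RPKM values, per exon length and mapped reads. Deposited coordinates of 8 of the 9 genes equal those of GENCODE vM21, and promoter windows are from RefSeq, where 3 of the 9 genes were matched.

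Levels are RPKM as deposited. Changes were fitted on exon counts of all genes by glmQLFit and glmQLFTest of edgeR 4.0.16 (R 4.3.3), after filterByExpr and TMM scaling, with Benjamini-Hochberg adjustment over all genes tested, with calls at an adjusted p under 0.05. Keratinocytes (4 libraries), T cells (6), co-culture effects (8) and cell types (10) were fitted apart. With 2 libraries against 2, an exact test of a single value cannot go below p = 0.333, so none was used. The fit was tested on simulated data with independent libraries and with changes larger than those of the members. That test does not show how well changes of the members' size are found. Python 3.11.15 was used for tables and plots. The members and the gene lists were chosen with earlier results of these data known. Named genes are the 9 members, the markers, up to 3 called genes per list and comparison with the largest change, and the 3 genes nearest to each member. Itgam of the lists was not analysed here. Some genes that this rule names are not reported here. Each change was also recomputed with DESeq2 1.42.0, and with limma 3.58.1 on log2 RPKM after a pseudocount of 1 or 0.1 was added. Within edgeR, TMM was replaced by library size, the filter was dropped or raised to a minimum of 10 counts per library, exon reads were restricted to uniquely mapped ones, replicate numbers entered as a block, other sets of libraries were fitted, and single libraries were omitted in turn.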

Additional observations from a re-analysis of the deposited data

Results flagged for a closer look

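The effect of co-culture on Irf1, a gene of the list of interferon-γ and NF-κB factors, differed between the cell types by a test of the difference itself. It was larger in keratinocytes than in T cells by 3.73 ± 0.54 (SE) on the log2 scale (adjusted p = 0.0364, edgeR), and both co-cultured keratinocyte libraries lay above both libraries of keratinocytes alone. The call was lost without 7 of the 8 libraries in turn, at adjusted p-values up to 0.143, and with at least 10 counts in every library (adjusted p = 0.184). No such difference passed for the 9 adhesion and costimulation genes, and groups of 2 libraries are too small to test for a library that stands apart.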

How the results depend on the processing

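Of 778 recomputed log2 fold changes of the 9 genes, 714 kept their direction and side of the threshold, 10 passed that had not, 16 no longer passed and 38 turned direction. The count of called members went from 0 to 1 in keratinocytes with DESeq2 (Icam1), and from 0 to 1 between activated T cells and mixed medium both with DESeq2 and without a filter on low counts (Itga4 in each). With each library left out it ranged from 0 to 1 in keratinocytes and from 3 to 6, against 5, between the cell types, and it stayed at 0 in the other comparisons. With all libraries kept it ranged from 4 to 6 between the cell types, where Itga4 gained and Itgal lost a call. The log2 fold changes that turned with all libraries kept were close to 0. They were Icam2 from activation to mixed medium with limma (-0.003 and -0.004 with pseudocounts of 1 and 0.1), Cd80 there with library size (-0.04) and limma (-0.052 and -0.103), and Cd28 from mixed medium to co-culture with library size (-0.058) and limma (-0.056 and -0.057). The genes that turned with a library left out had the following ranges of log2 fold changes. The ranges in keratinocytes were Icam2 -0.783 to 2.21, Vcam1 -0.945 to 1.60, Cd86 -0.563 to 1.96, Itgal -1.12 to 2.10, Itgb2 -1.08 to 2.08, Itga4 -1.18 to 1.85 and Cd28 -0.783 to 1.65. The ranges from activated T cells to mixed medium were Icam2 -0.253 to 0.542, Cd80 -0.358 to 0.452 and Cd86 -0.146 to 0.769. The ranges from activated to co-cultured T cells were Vcam1 -0.2 to 2.28, Cd80 -1.72 to 0.245, Cd86 -0.826 to 0.09 and Itgal -0.049 to 0.597. The ranges from mixed medium to co-cultured T cells were Cd80 -1.80 to 0.162, Itgal -0.506 to 0.055, Itgb2 -0.24 to 0.059, Itga4 -0.666 to 0.057 and Cd28 -0.283 to 0.264. The ranges for the co-culture effect in keratinocytes minus that in T cells were Icam2 -0.127 to 2.91, Vcam1 -0.763 to 1.83, Itgal -0.966 to 2.30, Itgb2 -1.04 to 2.16, Itga4 -0.91 to 2.16 and Cd28 -0.841 to 1.63. In keratinocytes these turns came with the omission of replicate 2 of the co-cultured libraries and, for Vcam1, also of replicate 1 of the keratinocytes alone. The cause was not tested.

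Keratinocyte libraries with the same number deviated together (Pearson r = 0.558 across 12515 genes), but 2 pairs do not show that the numbers mark shared cultures. With the replicate number as a block, 0 members and 2 genes in all were called, and Icam1 had a log2 fold change of 1.46 ± 0.25 (adjusted p = 0.126). The libraries of T cells in mixed medium and in co-culture carry no numbers in the labels, so no block was fitted there. By the names used here, library 1 was above library 2 in both groups for Itgal, Itga4 and Cd8b1. Cd8b1 was at 762.4 and 379.9 RPKM in mixed medium and at 681.3 and 326.9 RPKM after co-culture. Cd28, Icam2, Cd80 and Cd86 did not keep one order. Itgal and Itga4 were lower after co-culture between libraries of the same name. Whether such libraries belong together was not tested. Over all settings the adjusted p of Icam1 in keratinocytes ranged from 0.00793 to 1. Counts over all genes moved more, to 0 to 186 in keratinocytes and 0 to 1164 with a library left out, 24 to 1947 from activation to mixed medium, 266 to 2425 from activation to co-culture, 0 to 141 from mixed medium to co-culture, 0 to 353 for the difference of the co-culture effects, and 4343 to 7282 between the cell types. Library size in place of TMM shifted the median of all genes to -0.13 and -0.17 in the comparisons from activation. Mean levels moved by less than 1 SD in all 45 cases with uniquely mapped reads and in 35 of 45 with TMM scaling. At least 10 counts in every library left no value for Cd80 in any comparison with T cells. Cd80 had 7 to 61 reads a library, which limits what can be said of its changes.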
